A study of Homo sapiens with 8 samples.

Results

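The E2F transcription factors and the pocket proteins that restrain them were followed at the RNA level in MDA-MB-231 cells, a triple-negative human breast cancer line, with and without an edit of DOT1L, the histone methyltransferase that modifies lysine 79 of histone H3. The members were the 8 E2F genes (E2F1, E2F2, E2F3, E2F4, E2F5, E2F6, E2F7 and E2F8) and the pocket protein genes RB1 and RBL1, taken by symbol, so that 10 of the 60646 genes of the count table were members. The study set 4 samples of DOT1L knockout cells, written DOT1L/+ KO in the treatment notes and made with a guide RNA against the first exon of DOT1L, against 4 samples of wild-type cells of the same line. Cells of both groups were harvested for RNA 1 day after plating at about 50% confluency, and the labels name no drug. Replicates carry the numbers 1, 2, 3 and 5 in each group. The labels do not say whether the knockout is 1 clone or a pool, whether the edit is heterozygous, or whether replicates are separate cultures. The p-values therefore take the variation among these libraries as their error, and that variation may be technical only.

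E2F proteins bind DNA mostly as heterodimers with a DP protein and control genes needed for DNA replication and for the passage from G1 into S phase. E2F1, E2F2 and E2F3 are the activators, E2F4 and E2F5 repress in quiescent and G1 cells together with pocket proteins, E2F6 represses through a Polycomb complex without pocket proteins, and E2F7 and E2F8 are atypical repressors that need neither a DP partner nor a pocket protein. RB1 binds mainly the activators and RBL1, also called p107, binds mainly E2F4. Cyclin-dependent kinases phosphorylate the pocket proteins and release E2F, and several E2F genes are themselves E2F targets.

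Total counts were between 40103408 and 50031412 per library. DOT1L was measured at 85.3, 78.1, 83.2 and 92.3 CPM (counts scaled to a library of 1e6 reads) in the DOT1L knockout samples and at 115, 101, 103 and 118 CPM in the wild-type samples, a log2 change of -0.37 ± 0.06 (SE, n = 4 each, adjusted p = 2.83e-05 by edgeR's quasi-likelihood test). The DOT1L transcript was thus lower in every knockout sample but present in all of them, and counts over the whole gene do not show the edit itself. Its 40 neighbouring genes had a median log2 change of -0.13, and -0.23 was left with that subtracted in the fit (adjusted p = 0.00285). Here and below the median was subtracted as a fixed value, so such p-values leave out its own error. Markers of the line were present in both groups, although 7 of the 10 tested ones changed (5 higher and 2 lower). VIM averaged 3871 and 2941 CPM in knockout and wild-type cells (log2 change 0.40, adjusted p = 8.82e-06), KRT8 540 and 310 CPM (0.80, adjusted p = 2.7e-06), KRT18 362 and 288 CPM (0.33, adjusted p = 6.96e-06) and AXL 1003 and 1237 CPM (-0.30, adjusted p = 1.66e-05). CD44 at 775 and 794 CPM and CAV1 at 521 and 495 CPM did not pass. Of the markers listed as low or absent in the line, ESR1 was at 0.538 and 0.262 CPM, PGR at 0.0933 and 0.0282 CPM, CDH1 at 0.212 and 0.0059 CPM, EPCAM at 6.74 and 6.62 CPM, GATA3 at 4.97 and 3.98 CPM and ERBB2 at 73.8 and 86.9 CPM in knockout and wild-type cells. ERBB2 was thus not low here. The other called markers of the 7 were among those listed as low or absent. The part of these differences in the members' results was not tested. Changes were widespread, since 9458 of the 19877 genes tested passed an adjusted p of 0.05, which is 47.6% of them. Of these, 4759 were higher and 4699 were lower in knockout cells. That split was 6021 higher and 3705 lower with upper-quartile scaling, which placed the median log2 change of all genes at 0.07 instead of 0.00.

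All 10 members passed the filter on low counts, with 296 to 12881 reads per member and sample. E2F8, an atypical repressor, was 42.8% lower in knockout cells and E2F4, the most abundant canonical repressor, was 12.5% lower. The activator E2F3 was 14.6% higher and the atypical repressor E2F7 was 13.8% higher. The other 6 members did not pass the test, so 4 of 10 members (40%) were called against 47.6% of all genes tested, a share near the background. By direction, 2 of 10 members were higher, against 23.9% of all genes, and 2 were lower, against 23.6%. With upper-quartile scaling or library totals alone, 4 members were higher and 2 lower, since E2F1 and RB1 then passed. The median log2 change of the members was -0.02, beside 0.00 over all genes tested. By the size of its change E2F8 exceeded 86.6% of all genes tested, and no other member exceeded more than 43.8%.

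Promoter sequence is shown first for the members whose RefSeq promoter (GRCh38.p14, 250 bases before to 50 after the start) holds a consensus E2F site, because several genes of the family are known E2F targets. The search used the spellings TTTCCCGC and TTTCGCGC, and also TTTGCCGC and TTTGGCGC, on both strands. A match was found in 4 of the 8 members with an entry, against 3.31% of 35116 promoter entries of the same length. Among the 68 entries searched for the listed G1/S targets the share was 41.2%, and these entries may not cover every listed target. The bases from 150 before the start to 1 before it are printed on the gene's strand, 5′ to 3′, with the E2F matches in capitals. They lie at chr20:33686386-33686535 (minus strand) for E2F1, chr1:23531234-23531383 (minus strand) for E2F2, chr6:20401729-20401878 (plus strand) for the upstream start of E2F3 and chr20:37095998-37096147 (minus strand) for RBL1.
E2F1: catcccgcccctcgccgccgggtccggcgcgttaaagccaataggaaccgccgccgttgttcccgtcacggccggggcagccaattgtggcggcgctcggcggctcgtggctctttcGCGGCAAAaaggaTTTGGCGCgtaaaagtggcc
E2F2: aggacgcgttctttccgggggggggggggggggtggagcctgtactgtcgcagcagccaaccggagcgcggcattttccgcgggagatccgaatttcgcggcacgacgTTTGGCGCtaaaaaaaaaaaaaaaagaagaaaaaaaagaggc
E2F3: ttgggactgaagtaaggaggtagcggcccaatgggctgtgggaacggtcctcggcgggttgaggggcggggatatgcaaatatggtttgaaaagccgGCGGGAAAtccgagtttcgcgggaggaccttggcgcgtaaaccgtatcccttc
RBL1: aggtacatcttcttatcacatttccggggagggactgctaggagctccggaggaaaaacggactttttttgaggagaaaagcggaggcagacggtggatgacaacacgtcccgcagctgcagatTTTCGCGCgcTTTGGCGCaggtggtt

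E2F1 and RBL1 each hold 2 matches within 33 bases of the start, at -33 to -26 and -20 to -13 in E2F1 and at -26 to -19 and -16 to -9 in RBL1. E2F2 holds 1 match at -42 to -35 and E2F3 holds 1 at -53 to -46. The 4 promoters differ around these sites. E2F1 has CCAAT boxes and GC boxes (GGGCGG) upstream, E2F3 has CCAAT boxes, a GC box and the letters TTTGAA of a cell-cycle homology element, and RBL1 and E2F2 have none of these in the window searched. A GC box was present in 45.0% of all promoter entries, and TTTGAA or TTCGAA in 16.4%. The 4 genes with a match had log2 changes of 0.11, -0.03, 0.20 and -0.02 in the order E2F1, E2F2, E2F3 and RBL1, so only E2F3 of the 4 passed the test. No E2F consensus letters were found in the windows of E2F4, E2F6 and E2F7, which says only that these spellings are not there. E2F5 and E2F8 had no entry among the promoters searched, so their promoters were not examined. The RB1 entry lies inside the gene, at positions 48476200 to 48476499 of chromosome 13, far from the gene's annotated start at 48303726, so the main RB1 promoter was not searched.

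The E2F7 promoter carries CCAAT boxes, as those of E2F1 and E2F3 do, but no E2F match. The CCAAT box is the element bound by the trimeric factor NF-Y in many cell-cycle promoters. The E2F7 promoter is printed from 240 bases before the start to 1 before it, at chr12:77065570-77065809 on the minus strand, with the 4 matches in capitals. All 4 lie on the opposite strand and so read ATTGG here, and the second from the left shares its last bases with a GC box. A CCAAT box was present in 34.6% of all promoter entries, in 61.8% of the target entries and in 3 of the 8 members with an entry.
E2F7: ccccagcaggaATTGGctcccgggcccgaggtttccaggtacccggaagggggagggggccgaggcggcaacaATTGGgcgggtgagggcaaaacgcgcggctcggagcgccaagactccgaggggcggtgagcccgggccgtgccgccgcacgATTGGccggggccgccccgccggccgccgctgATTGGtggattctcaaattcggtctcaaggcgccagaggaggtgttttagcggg

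**Figure D1:**
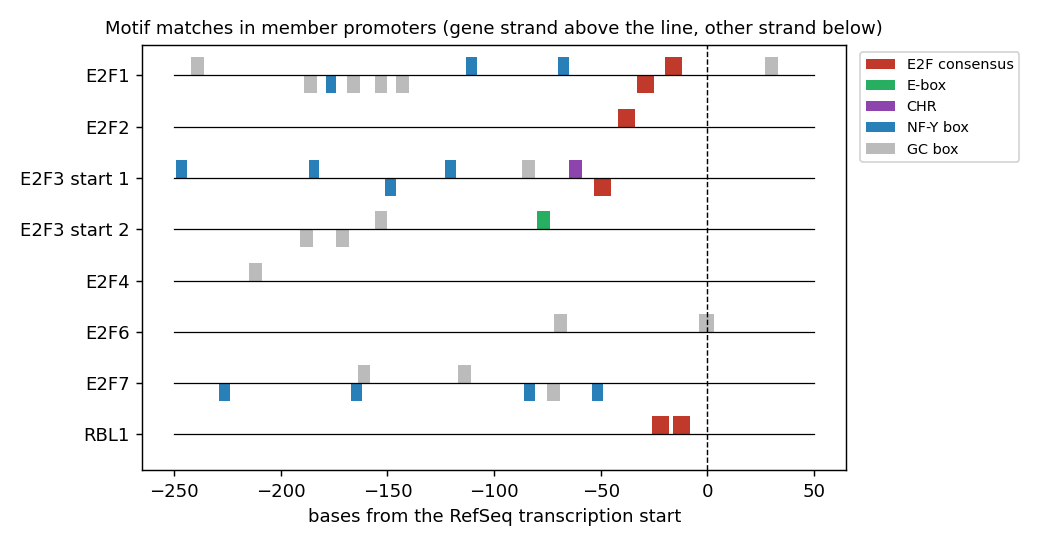
Motif matches along the 300-base RefSeq promoters of 7 members, drawn against bases from the transcription start (horizontal axis), with gene-strand matches above each line and opposite-strand matches below. E2F consensus matches (red) lie within 53 bases upstream of the start in E2F1, E2F2, E2F3 and RBL1. E2F7 holds 4 CCAAT-type NF-Y boxes (blue) on the opposite strand, and E2F1 and E2F3 hold such boxes too.

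The E-box CACGTG, the element bound by MYC and Mondo factors named in the study's title, was found at 1 place in the member promoters, at -80 to -75 of the downstream start of E2F3, and in 7.26% of all promoter entries. E2F3 makes a longer and a shorter protein from separate starts, and counts per gene do not separate them.

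Among the activators, E2F3 (chromosome 6, 20401906 to 20493715, plus strand, coordinates from GENCODE 29 on GRCh38 here and below) was called. It was measured at 108, 107, 110 and 112 CPM in the DOT1L knockout samples and at 94.6, 91.3, 100 and 95.8 CPM in the wild-type samples. Every knockout sample was above every wild-type sample. E2F3 rose by a log2 change of 0.20 ± 0.04 (SE, n = 4 each, adjusted p = 0.00091). The region around E2F3 moved further in the same direction, since the 40 tested genes nearest to it, over 9.60 Mb, had a median log2 change of 0.33, and 24 of them were higher and 7 lower. With the neighbours' median subtracted in the fit, E2F3 was 0.13 lower on the log2 scale (log2 change -0.13, adjusted p = 0.0197). In that fit 5 members were called, 2 higher and 3 lower, against 44.6% of all genes tested. The part of a regional change in the E2F3 result was not tested.

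E2F1 (chromosome 20, 33675683 to 33686404, minus strand), the activator best known for inducing both S phase and apoptosis, had 102, 94.7, 94.3 and 92.9 CPM in knockout samples and 91.9, 91.1, 82.5 and 90.8 CPM in wild-type samples. The groups did not overlap, although the lowest knockout and the highest wild-type sample were 92.9 and 91.9 CPM. Groups did not overlap for 4 of the 10 members, with knockout above for E2F1 and E2F3 and below for E2F4 and E2F8, against 43.4% of all genes tested (21.3% with knockout above and 22.1% below). The log2 change of 0.11 (95% interval 0.01 to 0.21) missed the threshold (adjusted p = 0.0729). E2F1 passed it when the shared replicate number entered as a block (log2 change 0.11, adjusted p = 0.0274), under upper-quartile scaling (0.17, adjusted p = 0.00621), when library totals alone set the scale (0.17, adjusted p = 0.0121) and with the neighbours' median subtracted (0.13, adjusted p = 0.0344).

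E2F2 (chromosome 1, 23506430 to 23531220, minus strand), the least abundant activator, had 15.9, 14.0, 13.6 and 14.3 CPM in knockout samples, against 14.3, 13.8, 14.0 and 16.9 CPM in wild-type samples. The ranges lay over each other, with the highest value in wild-type replicate 5. The log2 change was -0.03 with a 95% interval of -0.19 to 0.13 (adjusted p = 0.794), which spans both a fall and a rise.

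**Figure D2:**
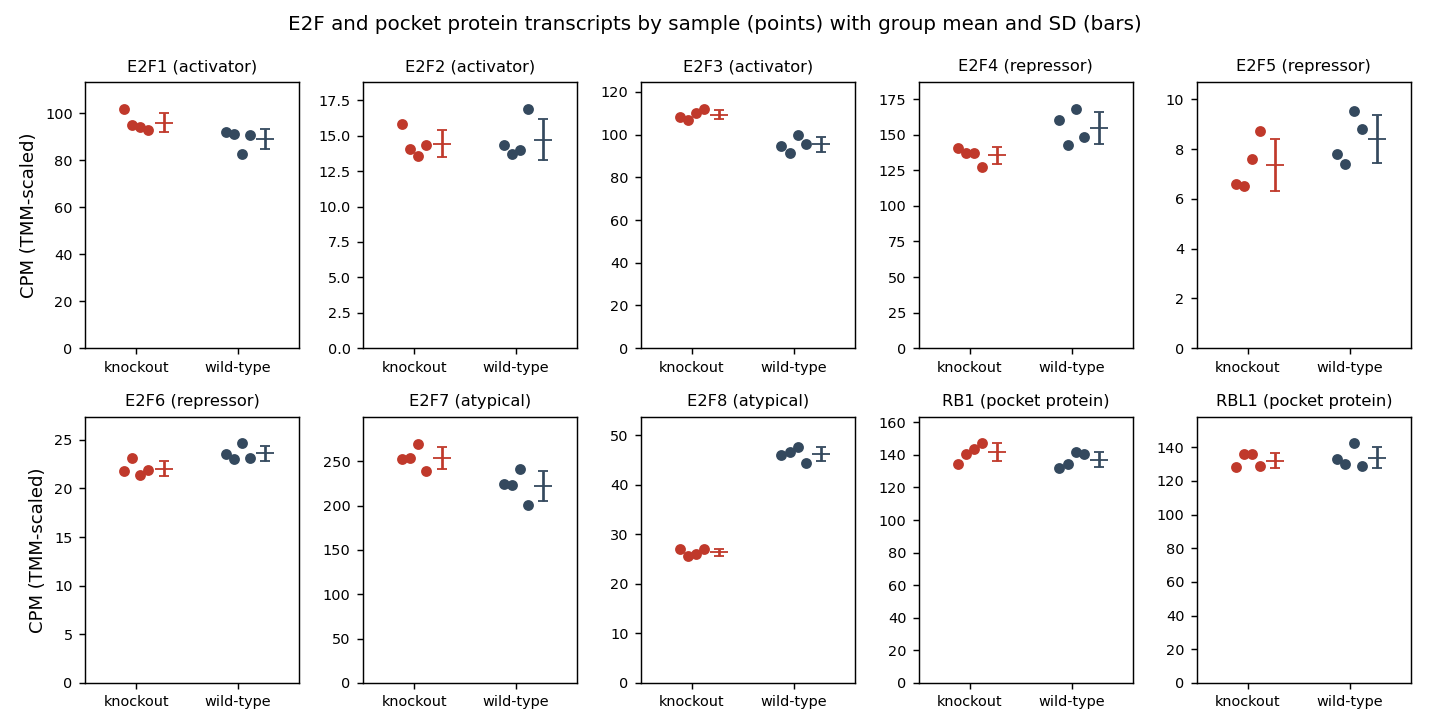
CPM of each member (vertical axes, from 0, with TMM scaling) in the 4 DOT1L knockout samples (red, left) and the 4 wild-type samples (dark, right), with the group mean and SD beside the points. E2F8 averages 26.4 CPM in knockout and 46.1 CPM in wild-type cells, and the other 9 members differ by much less than that ratio.

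Among the canonical repressors, E2F4 (chromosome 16, 67192169 to 67198918, plus strand), which carries most pocket protein complexes on promoters in G0 and G1, was called. Its values were 141, 137, 137 and 127 CPM in knockout samples and 160, 143, 168 and 148 CPM in wild-type samples. The highest knockout sample was just under the lowest wild-type sample. E2F4 fell, with a log2 change of -0.19 ± 0.05 (SE, n = 4 each, adjusted p = 0.00455). The 40 neighbouring genes had a median of -0.08, and with it subtracted the change was -0.12 and no longer passed (adjusted p = 0.0803).

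E2F6 (chromosome 2, 11444375 to 11466177, minus strand), the pocket-independent repressor of germline and G1/S genes, had 21.8, 23.1, 21.3 and 21.9 CPM in knockout samples and 23.5, 23.0, 24.7 and 23.1 CPM in wild-type samples. Knockout replicate 2 reached into the wild-type range. The log2 change was -0.10 (95% interval -0.22 to 0.02, adjusted p = 0.156). Its neighbours went the other way, with a median of 0.14 and 17 of 40 higher, and with that median subtracted the change was -0.24 (adjusted p = 0.00173).

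E2F5 (chromosome 8, 85177225 to 85217158, plus strand), a relative of E2F4, was the lowest member, with 6.61, 6.53, 7.59 and 8.74 CPM in knockout samples and 7.81, 7.41, 9.55 and 8.83 CPM in wild-type samples. The groups overlapped, and replicates 3 and 5 were higher than replicates 1 and 2 in both. The log2 change was -0.19 (95% interval -0.41 to 0.03, adjusted p = 0.144), and without knockout replicate 5 it was -0.28 and passed (adjusted p = 0.0284). E2F5 is uncertain because 969 of its 5928 exon bases overlap exons of RBIS on the opposite strand, which had 13098 reads over the 8 libraries, and the strand setting of the read counting is not given in the sources used here.

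E2F8 (chromosome 11, 19224063 to 19241620, minus strand) showed the largest change of the 10 members. This atypical repressor is induced in S phase and shuts E2F1 and other G1/S genes down again. It had 26.9, 25.5, 26.0 and 27 CPM in DOT1L knockout samples, against 45.9, 46.5, 47.6 and 44.3 CPM in wild-type samples. In bulk RNA, fewer cells in the phase that expresses such a gene and less of it per cell cannot be told apart. The groups were far apart beside a spread of 0.732 CPM (SD) in knockout and 1.41 CPM in wild-type cells. E2F8 fell, with a log2 change of -0.80 ± 0.05 (SE, n = 4 each, adjusted p = 2.96e-11), and it stayed between -0.83 and -0.78 when any 1 sample was left out. Its neighbours on chromosome 11 were also lower, with a median of -0.28, and 18 of 40 were lower and 6 higher. With that median subtracted the change of E2F8 was -0.53 (adjusted p = 2.59e-08).

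E2F7 (chromosome 12, 77021247 to 77065580, minus strand), which acts together with E2F8 in mouse development, moved the other way. It had 253, 253, 269 and 239 CPM in knockout samples and 225, 224, 242 and 200 CPM in wild-type samples. The ranges overlapped a little, since knockout replicate 5 was below wild-type replicate 3, while each knockout sample was above the wild-type sample of the same number. E2F7 rose by a log2 change of 0.19 ± 0.05 (SE, n = 4 each, adjusted p = 0.00753). The neighbours had a median of 0.20, and with it subtracted the change was -0.01 (adjusted p = 0.883).

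The ratio of E2F7 to E2F8 reads within a library does not depend on scaling between libraries. It was 9.39, 9.94, 10.3 and 8.83 in knockout samples and 4.90, 4.81, 5.07 and 4.53 in wild-type samples. The lowest knockout ratio was well above the highest wild-type ratio. Per kilobase of exon, E2F8 made up 13.7 ± 0.817% of the summed E2F7 and E2F8 level in knockout cells and 24.0 ± 0.872% in wild-type cells (SD, n = 4 each).

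Neither pocket protein gene among the members passed the test. RB1 (chromosome 13, 48303726 to 48599436, plus strand), the retinoblastoma protein gene, had 135, 141, 144 and 148 CPM in knockout samples and 132, 134, 142 and 140 CPM in wild-type samples. The groups overlapped over most of their range. The log2 change was 0.05 (95% interval -0.05 to 0.14, adjusted p = 0.434), and it passed under upper-quartile scaling (0.11, adjusted p = 0.0416), when library totals alone set the scale (0.11, adjusted p = 0.0367) and with the neighbours' median of -0.09 subtracted (0.14, adjusted p = 0.0176).

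RBL1 (chromosome 20, 36996349 to 37095995, minus strand), the pocket protein that is itself an E2F target, had 128, 136, 136 and 129 CPM in knockout samples and 133, 130, 143 and 129 CPM in wild-type samples. No sample stood apart by group. The log2 change was -0.02 (95% interval -0.12 to 0.08, adjusted p = 0.765). An antisense gene on the opposite strand shares 211 exon bases with RBL1 and had 137 reads in all.

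**Figure D3:**
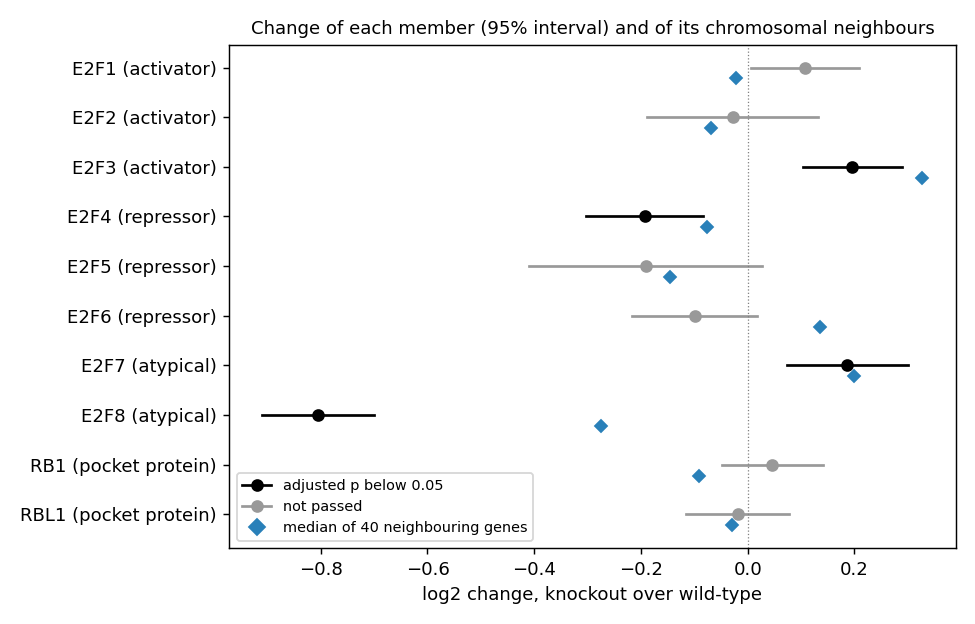
Log2 change of each member, DOT1L knockout over wild-type (horizontal axis, circles with 95% intervals, black where the adjusted p was below 0.05), and the median log2 change of its 40 neighbouring genes (blue diamonds). E2F8 at -0.80 lies well below its neighbours at -0.28, whereas E2F7 at 0.19 lies beside its neighbours at 0.20 and E2F3 at 0.20 lies below its neighbours at 0.33.

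Levels of different genes were compared as CPM per kilobase of merged exon. In knockout cells the order was E2F7 at 40.2 ± 1.98, E2F1 at 38.3 ± 1.61 and E2F4 at 37.9 ± 1.64 CPM per kb, whose ranges overlapped, and in wild-type cells E2F4 led at 43.3 ± 3.14, apart from E2F1 at 35.6 ± 1.75 and E2F7 at 35.3 ± 2.69 CPM per kb (SD, n = 4 each). RBL1 at 22.2 and 22.5, RB1 at 21.9 and 21.3 and E2F3 at 21.2 and 18.5 CPM per kb in knockout and wild-type cells formed a middle group. Their ranges overlapped in knockout cells, and E2F3 was apart from RB1 in wild-type cells. E2F8 followed at 6.37 and 11.1, E2F6 at 5.42 and 5.80, E2F2 at 2.65 and 2.70 and E2F5 at 1.24 and 1.42 CPM per kb, each apart from the next in both groups. The position of E2F8 in the order was thus the same, but it came close to E2F6 in knockout cells.

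Summed over the 8 E2F genes, the level was 153 ± 3.84 CPM per kb in knockout cells and 154 ± 4.89 CPM per kb in wild-type cells, while its make-up differed. The activators summed to 64.6, 61.1, 61.5 and 61.4 CPM per kb in knockout samples and to 57.6, 56.6, 54.9 and 57.9 CPM per kb in wild-type samples, without overlap. E2F4, E2F5 and E2F6 together came to 45.8, 45.0, 44.9 and 42.4 CPM per kb in knockout samples, against 51.9, 46.9, 54.6 and 48.6 CPM per kb in wild-type samples, again without overlap. The atypical pair came to 46.6 ± 1.89 CPM per kb in knockout and 46.5 ± 3.02 CPM per kb in wild-type cells, so the lower E2F8 and the higher E2F7 offset each other in the sum. Shares of the pool within a library do not depend on scaling. The activators' share was 40.6 ± 0.883% in knockout and 37.0 ± 1.86% in wild-type cells, and that of E2F4, E2F5 and E2F6 was 29 ± 0.4% in knockout and 32.8 ± 1.27% in wild-type cells (SD, n = 4 each), both without overlap between the groups. These sums largely repeat E2F1, E2F3 and E2F4, since E2F2, E2F5 and E2F6 held 1.73%, 0.813% and 3.54% of the knockout pool. Of all genes tested singly, 43.4% did not overlap. With the neighbours' medians subtracted, E2F3 was at -0.13 and E2F4 at -0.12, the latter no longer called. The shares also rest on the merged exon lengths used. Within libraries, the ratio of E2F3 to E2F4 reads was 0.768 to 0.882 in knockout samples and 0.590 to 0.645 in wild-type samples.

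**Figure D4:**
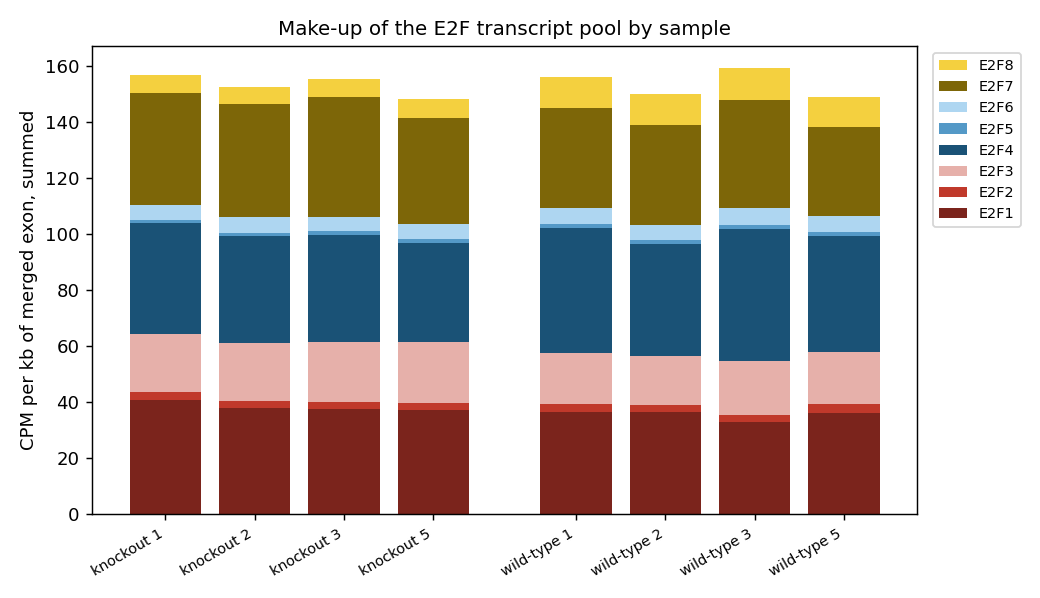
Level of the 8 E2F transcripts in CPM per kb of merged exon, stacked by gene (vertical axis), for each DOT1L knockout sample (left) and each wild-type sample (right). The stacks are of similar height, 153 and 154 CPM per kb on average, and the E2F8 segment (yellow) is smaller in all 4 knockout samples.

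The genes most like a member over the 8 samples were found as the root mean square difference of centred log2 CPM over 11506 protein-coding genes. For E2F8 these were LARP7, UFSP2 and WDR6, with differences of 0.03, 0.03 and 0.04. For E2F3 they were RPL28, RARA and IRGQ, and for E2F4 they were RPL35, RPIA and MRPS7. Their log2 changes were -0.81, -0.83 and -0.82 for the genes like E2F8, 0.21, 0.19 and 0.16 for those like E2F3, and -0.19, -0.16 and -0.19 for those like E2F4. That these resemble the members' changes follows from the search, which matched genes on the same 8 samples.

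Of 7 tested DP partner and MuvB core genes (the core that joins E2F4 and a pocket protein in the DREAM complex), 0 were higher, 6 were lower and 1 did not pass, a called share of 85.7% beside 47.6% of all genes (23.6% lower), with a median log2 change of -0.18 beside 0.00 over all genes. TFDP1 and TFDP2, the DP subunits that E2F1 to E2F6 need for DNA binding, changed by -0.14 ± 0.04 and -0.21 ± 0.05 (SE, adjusted p = 0.0079 and 0.000896). LIN54, the DNA-binding subunit of MuvB, fell to 25.6, 26.9, 29.2 and 31.2 CPM in knockout samples, against 48.4, 46.3, 49.0 and 46.4 CPM in wild-type samples (log2 change -0.75, adjusted p = 9.81e-10), without overlap. Its 40 neighbours on chromosome 4 had a median of -0.74, and with that subtracted the change was -0.01 (adjusted p = 0.901). LIN52 changed by -0.29, LIN9 by -0.18 and RBBP4 by -0.13. LIN9 lost its call without replicate 3 of either group (adjusted p up to 0.054), and RBBP4 lost it when knockout replicate 3 or 1 of the wild-type replicates 1 and 2 was left out (adjusted p up to 0.0711). LIN37 at 2.33 and 2.01 CPM in knockout and wild-type cells did not pass (0.22, adjusted p = 0.234). With upper-quartile scaling or library totals alone 3 of the 7 were lower, because TFDP1, LIN9 and RBBP4 no longer passed. TFDP3 had 1 read in all and was not tested.

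Upstream of the pocket proteins, the D-type cyclin genes CCND2 and CCND1, whose products start the phosphorylation of RB1 with CDK4 and CDK6, changed in opposite directions. CCND2 was at 168, 185, 202 and 213 CPM in knockout samples and at 51.6, 56.7, 51.8 and 52.5 CPM in wild-type samples (log2 change 1.85, adjusted p = 6.46e-14). CCND1 was at 495, 501, 504 and 481 CPM in knockout samples and at 804, 766, 811 and 818 CPM in wild-type samples (log2 change -0.69, adjusted p = 7.83e-11). Neither gene had overlapping groups. The neighbours of CCND2 had a median of 0.42 and those of CCND1 of -0.42, and with these subtracted the changes were 1.43 and -0.27, both still called. Of 12 genes for the cyclins, kinases and activators that act on pocket proteins, 3 were higher, 5 were lower and 4 did not pass (a called share of 66.7% beside 47.6% of all genes, median 0.00), and the split was 5 higher and 3 lower with upper-quartile scaling.

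CCNA2, the S-phase cyclin that also binds and inactivates E2F1, fell to 83.9, 92.2, 90.4 and 103 CPM in knockout samples, against 194, 183, 203 and 183 CPM in wild-type samples (log2 change -1.05, adjusted p = 6.77e-12). Its neighbours had a median of -0.80, and -0.25 was left with that subtracted (adjusted p = 0.00125). CDC25A, the phosphatase that activates CDK2, changed by -0.54 (adjusted p = 1.28e-08) beside neighbours at -0.58, and by 0.05 with those subtracted (adjusted p = 0.47).

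Among CDK inhibitors, CDKN1A, the gene of p21, was at 90.7, 88.5, 89.9 and 88.0 CPM in knockout samples and at 43.0, 47.3, 46.0 and 39.4 CPM in wild-type samples. The knockout samples lay close together and all above the wild-type samples (log2 change 1.02 ± 0.05, SE, adjusted p = 1.71e-12). Its neighbours were at 0.04. Of the 5 tested inhibitors 1 was higher, 3 were lower and 1 did not pass (a called share of 80.0% beside 47.6% of all genes, median -0.22). The lower ones were CDKN2C at -0.24, CDKN1C at -0.48 and CDKN2D at -0.22, and the groups overlapped for CDKN1C and CDKN2D. With the neighbours' medians of -0.42 and -0.12 subtracted, CDKN1C was at -0.06 (adjusted p = 0.757) and CDKN2D at -0.10 (adjusted p = 0.368), and neither was called. CDKN2D was no longer called without any 1 of 7 samples, with adjusted p up to 0.125. CDKN1B, the gene of p27, was at 37.7 and 39.3 CPM in knockout and wild-type cells (log2 change -0.06, adjusted p = 0.37), beside neighbours at 0.37, and it was called with those subtracted (-0.43, adjusted p = 6.66e-07). CDKN2A and CDKN2B, which encode the INK4 inhibitors p16 and p15, had 0 reads in all 8 libraries, which allows up to 3 reads or 0.0595 to 0.0751 CPM per library, counting error only.

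The chromatin proteins that pocket proteins recruit moved in both directions. Of 14, 3 were higher, 4 lower and 7 did not pass (a called share of 50.0% beside 47.6% of all genes, median 0.04), and with upper-quartile scaling the split was 7 higher and 2 lower. The histone demethylase gene KDM5A, whose product was found as an RB1-binding protein, changed by 0.31 (adjusted p = 1.92e-05) beside neighbours at 0.33 and by -0.01 with those subtracted (adjusted p = 0.848), the deacetylase gene HDAC1 by 0.25 (adjusted p = 6.87e-05) and its scaffold SIN3A by 0.21 (adjusted p = 0.000403). The H3K9 methyltransferase gene SUV39H1 changed by -0.24 (adjusted p = 0.00119).

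Coactivators and regulators of E2F proteins were lower in 6 and higher in 2 of 12 tested genes (a called share of 66.7% beside 47.6% of all genes, median -0.10), and with upper-quartile scaling in 5 and 3. KAT5, the acetyltransferase Tip60 that E2F1 recruits, was at 31.6 ± 1.12 CPM in knockout and 56.2 ± 1.61 CPM in wild-type cells (SD, n = 4 each, log2 change -0.83, adjusted p = 1.23e-11), beside neighbours at -0.43, and -0.40 was left with those subtracted (adjusted p = 1e-06). SKP2, the F-box protein that targets p27 and binds E2F1, changed by -0.56 (adjusted p = 1.45e-09) beside neighbours at -0.39, and by -0.16 with those subtracted (adjusted p = 0.00514). The cofactor HCFC1 changed by -0.27 (adjusted p = 3.4e-05) and the H3K4 methyltransferase gene KMT2A by 0.49 (adjusted p = 1.53e-06).

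Of 14 genes listed with the Polycomb complex that holds E2F6, 1 was higher, 4 were lower and 9 did not pass (median -0.08). The called share was 35.7% beside 47.6% of all genes. The list, with EPC1 and EPC2 in it, may hold genes that are not subunits of that complex. With upper-quartile scaling 3 were higher and 2 lower. MGA, the scaffold that pairs with MAX, changed by -0.21 (adjusted p = 0.0027) beside neighbours at 0.19 and by -0.40 with those subtracted (adjusted p = 4.1e-06), MAX, also the partner of MYC, by -0.18 (adjusted p = 0.00322) and YAF2 by -0.21 (adjusted p = 0.0149, and 0.0578 without knockout replicate 1), while HDAC1 is the higher one given above. Of 8 germline genes that E2F6 represses in mouse, 3 passed the filter on low counts. MAEL, a germline piRNA-pathway gene, was at 1.06, 1.12, 0.794 and 0.892 CPM in knockout samples and at 0.590, 0.576, 0.423 and 0.371 CPM in wild-type samples (log2 change 0.99, adjusted p = 0.00117), low in both groups. SYCE2 at 0.443 and 0.330 CPM and TDRKH at 15.4 and 14.4 CPM in knockout and wild-type cells did not pass.

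The G1/S genes that E2F factors bind showed no common direction. Of 63 listed targets, 5 of them members, 12 were higher, 20 were lower and 31 did not pass, a called share of 50.8% beside 47.6% of all genes, with a median log2 change of -0.03. Among the 58 that are not members, 11 were higher, 19 lower and 28 did not pass. The split of the 63 turned to 23 higher and 16 lower with upper-quartile scaling and to 21 and 17 with library totals alone, so no direction can be given for the list.

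MYBL2, the gene of B-Myb and a classical target repressed by E2F4 complexes, fell furthest of these, to 12.7, 10.4, 12.1 and 10.2 CPM in knockout samples against 99.9, 97.7, 104 and 88.2 CPM in wild-type samples. Its log2 change was -3.10 ± 0.07 (SE, adjusted p = 6.73e-17) beside neighbours at 0.00. GINS2, a subunit of the replicative helicase, changed by -0.62 (adjusted p = 4.06e-09), and CCNA2 and E2F8 complete the named targets.

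The apoptosis genes that E2F1 can activate split as well, with 5 higher, 6 lower and 2 not passing of 13 tested, a called share of 84.6% beside 47.6% of all genes (median -0.09). PMAIP1, the gene of NOXA, was at 52.7 ± 2.67 CPM in knockout and 29 ± 2.50 CPM in wild-type cells (log2 change 0.86, adjusted p = 1.9e-10), and TP53INP1 changed by 0.70 (adjusted p = 6.04e-05). AMBRA1 changed by -0.38 (adjusted p = 5.01e-06) beside neighbours at -0.33, and by -0.04 with those subtracted (adjusted p = 0.565).

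Genes of the G2/M phase, which MuvB complexes control with B-Myb, were higher in 12 and lower in 3 of 25 and 10 did not pass, a called share of 60% beside 47.6% of all genes (23.9% higher and 23.6% lower), with a median of 0.10. With upper-quartile scaling 17 were higher and 1 lower, and with the neighbours' median subtracted 7 were higher and 3 lower. HMMR changed by 0.39 (adjusted p = 2.18e-06) beside neighbours at 0.15 and by 0.24 with those subtracted (adjusted p = 0.000621). CDC20, the activator of the anaphase-promoting complex, changed by 0.33 (adjusted p = 5.73e-06). The spindle checkpoint kinase gene TTK changed by 0.27 (adjusted p = 4.11e-05) beside neighbours at 0.19, and was not called with those subtracted (0.07, adjusted p = 0.19). CENPE, a kinetochore motor, changed by -0.75 (adjusted p = 1.01e-06) beside neighbours at -0.77, and was not called with those subtracted (adjusted p = 0.814). CENPE, LIN54 and CCNA2 lie on chromosome 4, which was noticed after the values were seen, with neighbour medians of -0.77, -0.74 and -0.80, and the part of such regional changes in the list counts was not tested.

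**Figure D5:**
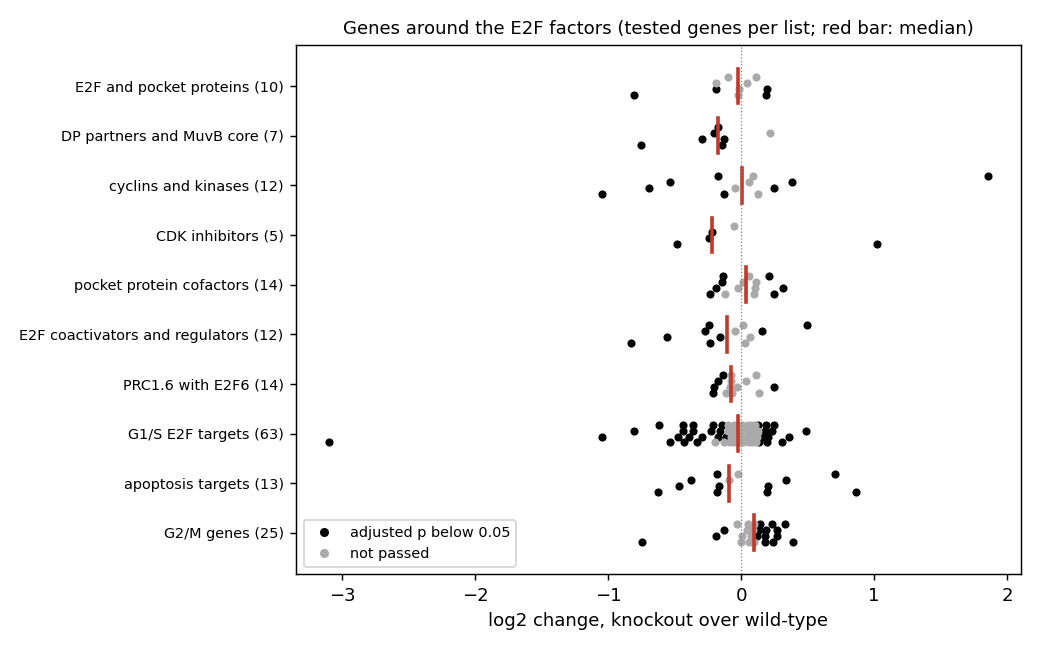
Log2 change, DOT1L knockout over wild-type (horizontal axis), of every tested gene of the members and of 9 lists around them, black where the adjusted p was below 0.05 and grey where it was not, with list medians as red bars. The 3 tested germline genes are not drawn. The medians drawn lie between -0.22 (CDK inhibitors) and 0.10 (G2/M genes), and single genes such as MYBL2 at -3.10 and CCND2 at 1.85 lie far outside the members' range of -0.80 to 0.20.

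Processed pseudogenes of E2F3, E2F4 and E2F6 could share reads with their parent genes. The 7 listed ones had 31 reads together in the 8 libraries, 25 of them in 1 pseudogene of E2F3, so little was counted there.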

How the data were processed

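RNA-seq counts per gene for 8 samples of MDA-MB-231 cells were taken as deposited. Per the labels' protocols, ribosomal RNA was depleted and stranded libraries of total RNA were sequenced. Per the submitters' processing notes, STAR 2.6.0c, featureCounts from Subread 1.6.2, FastQC 0.11.7 and DESeq2 1.23.10 were used with hg38; the strand setting is not given in the sources used here. A deposited table of log2-scale variance-stabilised values was used only for an alternative. Symbols were found for 60333 of 60646 identifiers, and GENCODE 29 coordinates for 58459.

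Genes were filtered with filterByExpr, scaled by TMM and tested with edgeR 4.0.16 (quasi-likelihood, robust, two-sided, R 4.3.3), with Benjamini-Hochberg adjustment over 19877 genes and a threshold of 0.05. Unless stated, adjusted p-values, log2 changes and intervals (95%) come from this fit. The procedure was tested on simulated data in which few genes changed, in random directions. That test therefore does not check the scaling where many genes change. CPM are TMM-scaled, and 1 read was worth 0.0198 to 0.0250 CPM. Neighbour medians used the 20 tested genes on each side. Alternatives were other scalings, no filter, DESeq2 1.42.0, limma 3.58.1, a replicate block, the neighbour offset and leaving out each sample.

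The same-numbered knockout and wild-type samples deviated together (r = 0.369, 0.148, 0.146 and 0.373 over 13344 genes, other pairs -0.302 to 0.0587), each over 0.1, so numbers were taken to pair samples. The main fit held the group alone and did not use this pairing, which entered only the alternative with a replicate block. Members, lists and tests were chosen with earlier results of these data known. Named genes were the members, DOT1L, all tested genes of lists of up to 8 tested genes, the 4 with the smallest adjusted p of longer lists, and the 3 genes most like each of the 3 members with the smallest adjusted p. Of these, 1 gene is counted in its list and not reported here.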

Additional observations from a re-analysis of the deposited data

Results flagged for a closer look

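In 4 of 126 groups of 4 samples looked at (63 named genes, both genotypes), or 3.17%, 1 sample lay far from the others by Dixon's ratio; chance alone gives about 1 in 20. E2F1 had 82.5 CPM in wild-type replicate 3, below the other wild-type samples at 90.8 to 91.9 CPM. TFDP1 had 210.1 CPM in knockout replicate 3, above the other knockout samples at 206 CPM. TDRKH had 14.4 CPM in knockout replicate 5, below the others at 15.6 to 15.7 CPM. RPL35 had 322 CPM in knockout replicate 5, below the others at 348 to 350.3 CPM.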

How the results depend on the processing

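The counts of called genes stayed within 1.5 times of the main counts under every alternative run: 8865 to 10472 for all genes, 4 to 6 for the members, 31 to 39 for the targets and 58 to 67 for the other lists, and 8387 to 9453, 4 to 5, 28 to 35 and 55 to 65 when 1 sample was left out. The higher and lower split did depend on scaling, with 5905 higher and 3744 lower genes for library totals alone, and with 41 and 23 of the 103 genes of the other lists for upper-quartile scaling, against 27 and 36. Of the values of single named genes under the alternatives, 952 kept direction and call, 41 lost and 10 gained the call, and 5 turned round, all with the neighbours' median subtracted: E2F3 -0.13, E2F7 -0.0118, CDC25A 0.0475, KDM5A -0.0135 and CENPE 0.025 (log2); a change of sign that passed in neither fit counts as kept. Among the members, E2F8 passed in all 16 alternatives (-0.83 to -0.53), E2F3 passed in all 16 with its sign turned in that 1, and E2F4 and E2F7 lost the call only there. The replicate block called 10472 genes and 5 members, E2F1 being the one added, and changed no other named gene's call. The subtraction of neighbours assumes that a region's median measures a shared regional change. The members' regions spanned 1.05 to 10.6 Mb, and spans for the other listed genes are not given. The median entered as a fixed value, so neither its error nor the spread among the neighbours is in the p-values of that fit. Those p-values are too small as tests of a gene against its region. Depth limited the precision of E2F6 and of E2F8 in knockout cells: the CV expected from counting alone was 2.79% for E2F8 in knockout cells, beside 2.78% between replicates, and 3.05% and 3.11% for E2F6 in knockout and wild-type cells, beside 3.41% and 3.21%.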
